A study of Mus musculus with 12 samples.

Results

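The EGF receptor family and its ligands were followed here across colon RNA of mice with chemically induced colitis. The members were taken by gene symbol: 7 ligands (Areg, Ereg, Hbegf, Tgfa, Btc, Epgn and Egf) and 3 receptors (Egfr, Erbb2 and Erbb3), which are 10 of the 54532 genes in each count table. RNA-seq had been made from the colon of 12 male C57BL/6 mice, 3 in each of 4 groups, which were 6 weeks old and had 1 week to adapt according to the methods. Colitis was induced in 3 of the groups with dextran sulfate sodium (DSS), a sulfated polysaccharide that injures the colonic epithelium, which the mice drank for 5 days as a 3% solution (w/v). The DSS group had DSS without ursolic acid. Ursolic acid (UA), a triterpenoid of fruits and herbs, was given by gavage at 200 mg/kg. In the UA+DSS group it was started 1 day before DSS and given for 7 days, and in the DSS+UA group it was started 3 days after the start of DSS and given for 4 days. The Con group had neither. The methods describe gavage of the vehicle in the Con and DSS groups, where the sample labels call Con untreated. The comparisons ask how these genes stood in colitis and whether UA given early or late changed them.

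EGF-family ligands are made as membrane-anchored precursors that are cut free by ADAM proteases and bind receptors on the same or neighbouring cells. EGFR binds all the ligands measured here, ERBB2 binds no ligand and serves as a partner of the other receptors, and ERBB3 binds neuregulins and signals mainly through ERBB2 because its own kinase is weak. In the gut this system is known for driving the migration, survival and division of epithelial cells during repair.

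Levels are given as CPM, the usual unit of counts relative to library size, after TMM scaling, and as CPM per kb of exon where genes are compared with each other. The total count was 15566216 to 19498383 per library, and all 10 members passed the low-count filter with 17658 genes. A gene is said to have risen or fallen only where the Benjamini-Hochberg adjusted p of edgeR's quasi-likelihood test, over those 17658 genes, was under 0.05. All 10 epithelial markers examined (Epcam, Krt20, Vil1 and Cdx1 among them) were detected in every group. Some libraries stood apart. The summed CPM of 5 neutrophil markers was 16900 in DSS 2 against 576 and 753 in the other DSS libraries, and that of 6 pancreatic acinar markers was 12800 in DSS 3 against 31.3 to 554 in the other libraries. Hox genes mark position along the gut. Their position score, in which the mean log2 CPM of 6 genes used toward the caecum is taken from that of 5 used toward the rectum, was -5.70 to -4.16 in UA+DSS, 0.37 to 3.10 in DSS and 4.11 to 5.06 in DSS+UA. In Con it was 5.53 in Con 1, -3.03 in Con 2 and -1.83 in Con 3. UA+DSS and DSS+UA libraries therefore lay at opposite ends of this score, and treatment and sampled position cannot be told apart in comparisons with them. UA+DSS overlapped with no other group in this score, so that a fit with the score as a covariate cannot separate treatment from position there.

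In the DSS group the ligands Ereg, Areg and Epgn rose and the receptors Erbb2 and Erbb3 fell against Con. Ereg changed most, by 25.8-fold. Egfr, the receptor of all these ligands, was at 46.4 ± 9.32 CPM (SD, n = 3) in Con and 53.7 ± 5.82 in DSS and did not pass the test. Of the 10 members, 3 were raised (13.9% of all tested genes were) and 2 were lowered (12.6%). For these 5 members no DSS library lay within the range of Con, as was the case for 41.3% of all tested genes. Epgn, counted among them, reached 10 counts in no Con library and passed the low-count filter only through the other groups. Ereg and Areg were the ligands raised without that limit.

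**Figure D1:**
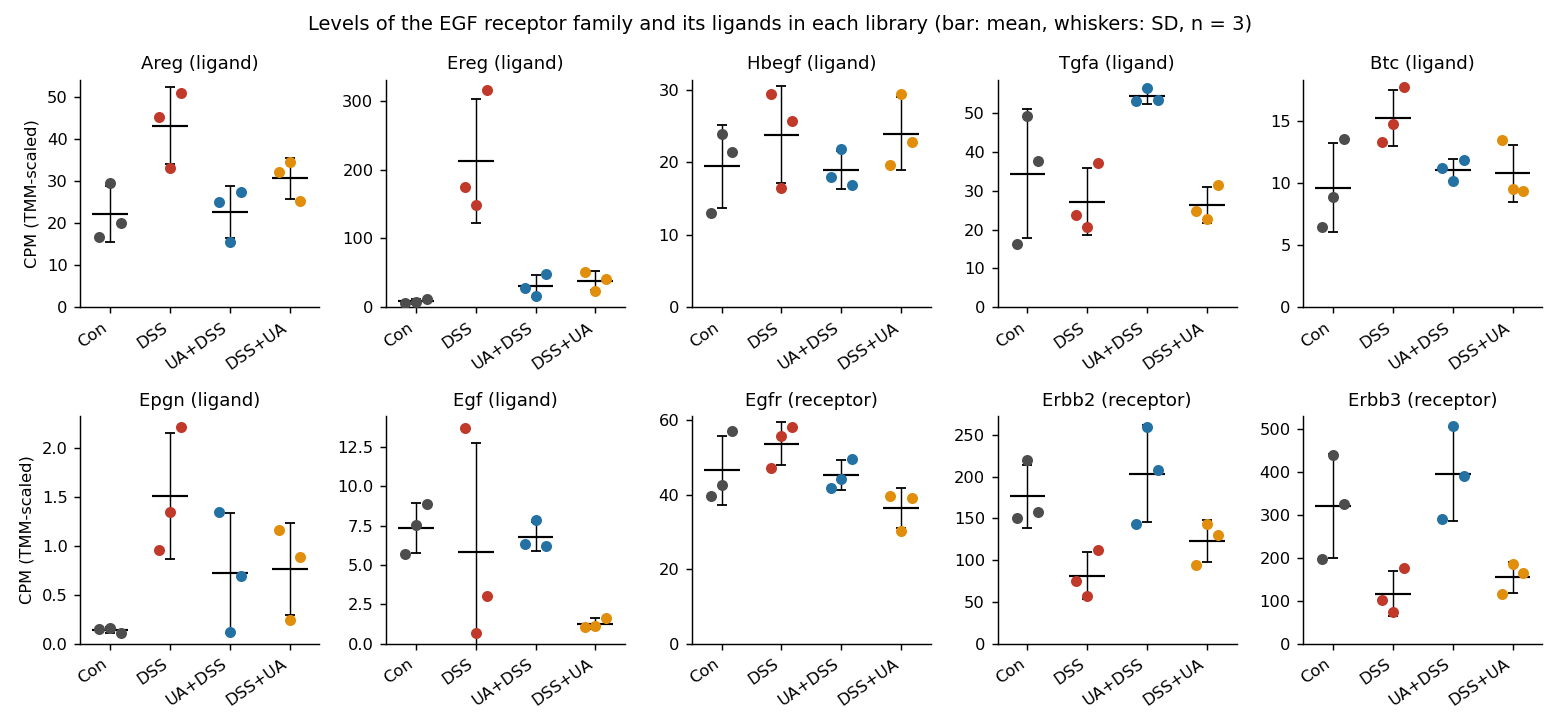
CPM of each of the 10 members (vertical axes, linear from 0) in each of the 4 groups; each point is a library, the bar is the mean and the whiskers are the SD of 3 libraries. Ereg reached 148 to 315 CPM in DSS against 5.28 to 11.6 in Con, and Erbb3 fell from 197 to 440 CPM in Con to 74.1 to 176 in DSS.

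Ereg encodes epiregulin, a ligand that also activates ERBB4. It was at 5.28, 7.77 and 11.6 CPM in the Con libraries. In the DSS libraries it was at 174, 148 and 315 CPM. Every DSS library was thus more than 10-fold above the highest Con library, and the highest value was in DSS 3. The log2 fold change was 4.69 (SE 0.52, edgeR adjusted p = 0.00123). It was 4.89 without DSS 2 and 4.29 without DSS 3, and the adjusted p was at most 0.00939 under the 13 alternatives to this fit.

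Areg encodes amphiregulin, an epithelial and immune cell ligand of EGFR linked to tissue repair. Its level was 16.7, 29.7 and 20.1 CPM in Con and 45.4, 33.2 and 51.1 CPM in DSS. The groups did not overlap, but the lowest DSS library, DSS 2, stood close to Con 2. The rise was 1.95-fold (log2 fold change 0.96, SE 0.27, edgeR adjusted p = 0.0247). It missed the threshold without Con 1 (adjusted p = 0.0759), Con 3 (0.0664), DSS 1 (0.0623) or DSS 3 (0.0653) and in a fit of the 2 groups alone (0.0639).

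Epgn encodes epigen, a ligand of low affinity for EGFR. It was near the limit of detection, with 3, 3 and 2 counts in the Con libraries, or 0.107 to 0.166 CPM. The DSS libraries held 0.962, 1.35 and 2.22 CPM. Every DSS library was above every Con library, but Epgn reached 10 counts in none of the Con libraries, so that it passed the low-count filter only through the other groups. Over the groups 89 counts in DSS stood against 8 in Con, a ratio of 10.5 (exact binomial 95% interval 5.08 to 25.0, counting error only), and edgeR gave a log2 fold change of 3.34 (SE 0.82, adjusted p = 0.0139).

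The other 4 ligands did not pass the test in DSS against Con. Btc (betacellulin) was at 6.46, 8.87 and 13.5 CPM in Con and at 13.3, 14.7 and 17.7 CPM in DSS. These ranges touched at Con 3 and DSS 1, and the log2 fold change was 0.67 (SE 0.27, edgeR adjusted p = 0.0872, or 0.0231 without Con 3 and 0.0257 with the position score in the fit). Hbegf (heparin-binding EGF-like growth factor) was at 19.5 ± 5.70 CPM (SD, n = 3) in Con and 23.8 ± 6.67 in DSS. Tgfa (transforming growth factor alpha) was at 34.5 ± 16.7 CPM in Con and 27.3 ± 8.76 in DSS. Egf itself was low and scattered in DSS, at 13.7, 0.701 and 3.06 CPM against 5.69, 7.54 and 8.88 in Con. Its highest and lowest values of the 12 libraries both lay in the DSS group, and without DSS 1 its log2 fold change was -1.97 (adjusted p = 0.0342) where it was -0.34 (adjusted p = 0.751) with all libraries.

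Of the ligands, 4 lie next to each other on mouse chromosome 5 (GRCm38), in the order Epgn (chr5:91027464-91035215), Ereg (chr5:91074622-91093646), Areg (chr5:91139599-91148432) and Btc (chr5:91357261-91402994), the first 3 on the plus strand and Btc on the minus strand. The region from Epgn to Btc spans 376 kb and holds 7 annotated genes, of which 5 passed the low-count filter. The other tested gene, Gm19610, overlaps an exon of Ereg on the opposite strand and had a log2 fold change of 0.56 (adjusted p = 0.238) in DSS against Con. It held 92 counts over the DSS libraries where Ereg held 12517, and the use of strand in the counting is not given in the sources used here. The RefSeq promoter table (GRCm38.p6) holds 3 of these 4 neighbours, with no entry for Ereg. The bases before the annotated start of each are shown because these genes lie side by side, and their DSS response ran from 3.34 (Epgn) over 0.96 (Areg) to 0.67 (Btc, not called) on the log2 scale. Capitals mark matches on either strand to the cyclic AMP response element TGACGTCA, the AP-1 site TGANTCA and the TATA box TATAAA, none of which overlap here.
Areg, chr5:91139349-91139598, plus strand: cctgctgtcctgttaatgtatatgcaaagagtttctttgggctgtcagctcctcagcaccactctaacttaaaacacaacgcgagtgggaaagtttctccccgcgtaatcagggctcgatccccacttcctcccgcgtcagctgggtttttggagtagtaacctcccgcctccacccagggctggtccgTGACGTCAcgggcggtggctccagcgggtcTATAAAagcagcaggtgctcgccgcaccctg
Epgn, chr5:91027267-91027463, plus strand: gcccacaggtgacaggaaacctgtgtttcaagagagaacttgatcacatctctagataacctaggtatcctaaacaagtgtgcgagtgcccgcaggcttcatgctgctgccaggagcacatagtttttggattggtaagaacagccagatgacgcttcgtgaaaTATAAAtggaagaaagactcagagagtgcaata
Btc, chr5:91402995-91403244, minus strand: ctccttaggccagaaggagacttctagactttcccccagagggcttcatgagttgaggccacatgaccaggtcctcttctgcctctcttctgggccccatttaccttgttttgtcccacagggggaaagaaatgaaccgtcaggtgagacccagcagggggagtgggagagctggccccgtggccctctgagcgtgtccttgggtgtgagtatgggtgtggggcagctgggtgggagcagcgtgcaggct
The Areg promoter held a full cyclic AMP response element beginning 61 bases before the start and a TATA box beginning 31 bases before it. The Epgn stretch is shorter because it was ended at the start of the GENCODE gene, which lies before the RefSeq start, and it held a TATA box beginning 33 bases before that start. Btc held none of the 3 motifs, and the AP-1 letters were in none of these stretches. Among the 250 bases before each of the 32851 starts in the table, 1.55% hold the cyclic AMP response element, 6.75% the AP-1 site and 12.4% the TATA box. Such a match describes the letters alone.

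Both receptors with a call had a lower mean in DSS than in Con. Erbb2 was at 151, 220 and 158 CPM in Con and at 74.7, 57.2 and 112 CPM in DSS. The groups did not overlap, and the log2 fold change was -1.12 (SE 0.29, edgeR adjusted p = 0.0187), or 2.17-fold lower. The call was lost without Con 2 (adjusted p = 0.0714), DSS 1 (0.0619) or DSS 2 (0.0559) and in a fit of the 2 groups alone (0.0521). An exon of Erbb2 overlaps one of Mien1 on the opposite strand, whose mean was 24.1 CPM in Con and 14.4 in DSS.

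Erbb3 was at 197, 440 and 327 CPM in Con and at 101, 74.1 and 176 CPM in DSS. It was 2.75-fold lower in DSS, with DSS 3 just below Con 1 (log2 fold change -1.46, SE 0.37, edgeR adjusted p = 0.0170). Without Con 2 the adjusted p was 0.0661, without DSS 1 it was 0.0592 and in a fit of the 2 groups 0.0619. Egfr had 39.6, 42.7 and 57.1 CPM in Con and 47.1, 55.7 and 58.2 CPM in DSS. The Egfr ranges overlapped, and its log2 fold change of 0.21 (SE 0.17, adjusted p = 0.386) left no difference detectable with 3 libraries a group.

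Epithelial markers were lower in DSS too. The summed CPM of the 10 epithelial markers was 13900 to 19300 in Con and 7850 to 12600 in DSS, and all 10 were lower in DSS. Of these 10, 2 passed the test, where 12.6% of all tested genes were lowered. In bulk RNA, fewer cells of a type and less RNA per cell cannot be told apart. Relative to 1000 CPM of these markers, Erbb2 was at 10.3 to 11.4 CPM in Con and 7.04 to 8.86 in DSS, which did not overlap. Erbb3 was at 13.4 to 23.6 in Con and 9.44 to 13.9 in DSS on this scale, which did overlap. The same ratio of Areg was 1.13 to 1.54 in Con and 4.04 to 4.28 in DSS, and that of Ereg was 0.359 to 0.837 in Con and 16.4 to 24.9 in DSS. The marker sum was lower in DSS, which by itself raises this ratio for any gene. Egfr, which was not called, was at 2.21 to 4.11 in Con and 4.44 to 7.09 in DSS on the same scale. The summed CPM of 6 absorptive colonocyte markers was 3140, 12100 and 7760 in Con and 2110, 1430 and 5920 in DSS, and none of them was called. It was 11300 to 15700 in UA+DSS and 2560 to 4290 in DSS+UA. The part of these cells in the receptor levels was not tested.

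Markers of other cell types were higher in DSS. The summed CPM of 7 fibroblast markers was 1080 to 1840 in Con and 3260 to 6980 in DSS, where 6 of 7 rose and the highest sum was in DSS 3, as was the highest Ereg. All 5 neutrophil markers and 6 of 7 macrophage markers also rose, where 13.9% of all tested genes did. Their sums were highest in DSS 2, at 16900 and 3020 CPM. That library had the lowest Ereg and Areg of the DSS group, at 148 and 33.2 CPM. Of 10 squamous epithelial markers, 3 of the 6 that passed the low-count filter rose, with sums of 2.14 to 4.24 CPM in Con and 17.3 to 69.5 in DSS, and Krt4 and Krt6a were at 0 in Con. The part of these cell types in the ligand and receptor levels was not tested.

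**Figure D2:**
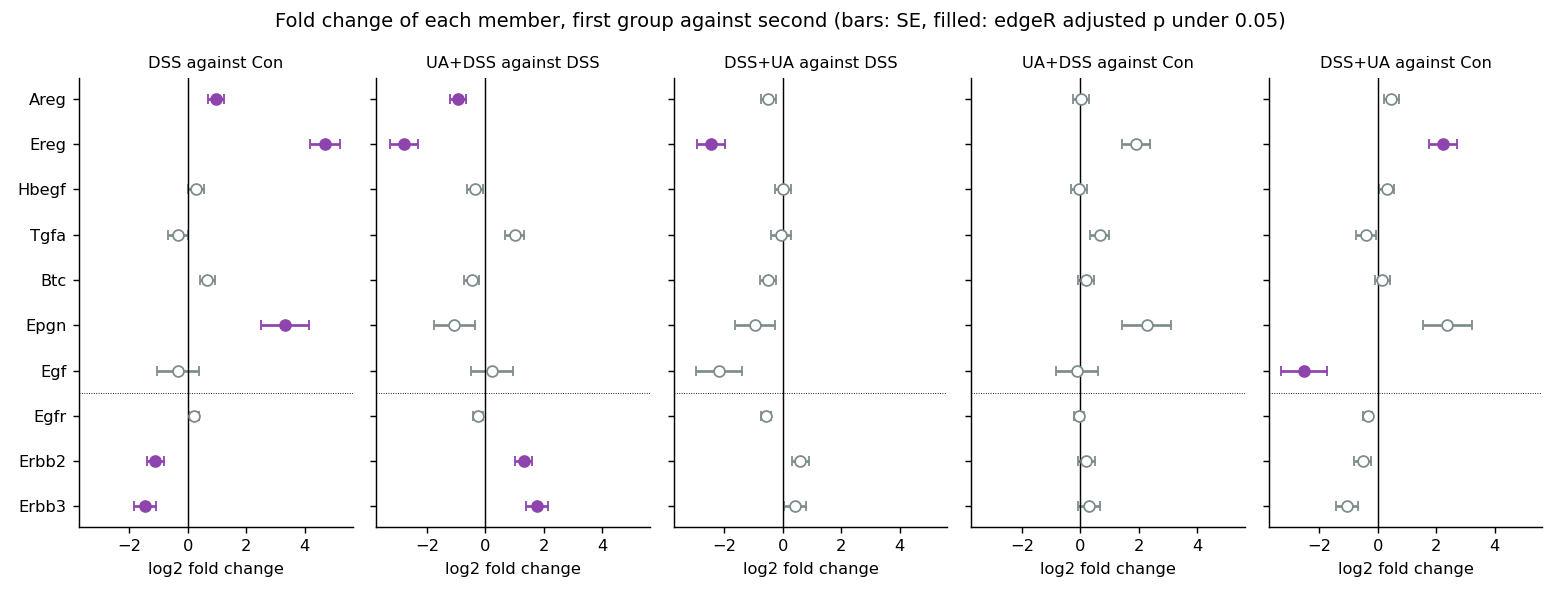
Log2 fold change (horizontal axes) of each member in 5 comparisons, with the SE as bars; filled points had an edgeR adjusted p under 0.05. In the first 2 panels, which share the DSS libraries, Ereg was at 4.69 and -2.78, Areg at 0.96 and -0.93, Erbb2 at -1.12 and 1.32 and Erbb3 at -1.46 and 1.76.

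With UA given from before DSS, 2 ligands were lower and 2 receptors were higher than in the DSS group. Ereg and Areg fell, Erbb2 and Erbb3 rose, and no other member passed the test. The comparison shares its 3 DSS libraries with DSS against Con, so that the values of both are not independent. Among all tested genes 8.21% were raised and 10.5% lowered in UA+DSS against DSS. The libraries did not overlap for 6 of the 10 members, against 42.8% of all tested genes.

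Ereg was at 27.2, 16.2 and 48.8 CPM in UA+DSS, all below the lowest DSS library at 148 CPM. The fall was 6.89-fold (log2 fold change -2.78, SE 0.48, edgeR adjusted p = 0.00998). Without UA+DSS 2 it was -2.48 (adjusted p = 0.0507), and with the position score as a covariate -3.33 (adjusted p = 0.0957). Areg was at 25.0, 15.6 and 27.4 CPM, again below every DSS library, with a log2 fold change of -0.93 (SE 0.27, edgeR adjusted p = 0.0370). The Areg call was lost in 8 of 13 alternatives. Its adjusted p was 0.0908 without DSS 1, 0.0835 without DSS 3, 0.0716 without UA+DSS 1, 0.143 without UA+DSS 2 and 0.0559 without UA+DSS 3. It was 0.0619 in a fit of the 2 groups, 0.0580 with the replicate number as a block and 0.125 with the position score.

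Erbb2 was at 143, 259 and 208 CPM in UA+DSS, above all 3 DSS libraries. It was 2.50-fold higher than in DSS (log2 fold change 1.32, SE 0.29, edgeR adjusted p = 0.0159). Erbb3 was at 290, 508 and 391 CPM, also without overlap, and was 3.39-fold higher (log2 fold change 1.76, SE 0.38, edgeR adjusted p = 0.0147). UA+DSS 2 held the highest value of both receptors, and without it the adjusted p was 0.0769 for Erbb2 and 0.0716 for Erbb3. With the position score in the fit the log2 fold changes were 0.95 (adjusted p = 0.223) and 0.91 (adjusted p = 0.263). Markers of several cell types moved in this comparison too. All 10 epithelial markers were higher in UA+DSS than in DSS and 2 passed the test, with sums of 15100 to 18000 CPM against 7850 to 12600. Per 1000 CPM of these markers Erbb2 was at 9.50 to 15.5 CPM in UA+DSS and Erbb3 at 19.2 to 30.5, both above the ranges of DSS (7.04 to 8.86 and 9.44 to 13.9). On the same scale Areg was at 0.938 to 1.66 and Ereg at 0.976 to 2.71, both below the ranges of DSS (4.04 to 4.28 and 16.4 to 24.9). All 5 neutrophil markers, 5 of 7 fibroblast markers and 4 of 7 macrophage markers fell, and the part of these cells in the levels was not tested. In DSS against Con the calls of all 5 members stayed with the position score in the fit. There the score ranges overlapped only through Con 1 (5.53), with Con 2 (-3.03) and Con 3 (-1.83) below every DSS library (0.37 to 3.10). The part of position in that comparison was not tested.

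Tgfa had its highest mean of the 4 groups in UA+DSS. It was at 53.3, 56.7 and 53.4 CPM there and at 23.9, 20.7 and 37.2 CPM in DSS. The groups did not overlap, but the log2 fold change of 1.00 (SE 0.34) had an adjusted p of 0.0618 by edgeR, against 0.0321 by DESeq2, 0.0431 in a fit of the 2 groups and 0.0327 without DSS 3. Among the Con libraries Tgfa was at 16.4 CPM in Con 1, 49.3 in Con 2 and 37.8 in Con 3, and Con 1 was the library with the Hox score of the rectal end. With that score in the fit the Tgfa difference was -0.10 (adjusted p = 0.876). Btc did not overlap either, at 10.1 to 11.8 CPM in UA+DSS (log2 fold change -0.47, adjusted p = 0.241). Hbegf, Epgn, Egf and Egfr overlapped between UA+DSS and DSS, with log2 fold changes of -0.34, -1.06, 0.22 and -0.25 and adjusted p of 0.309 to 0.858.

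**Figure D3:**
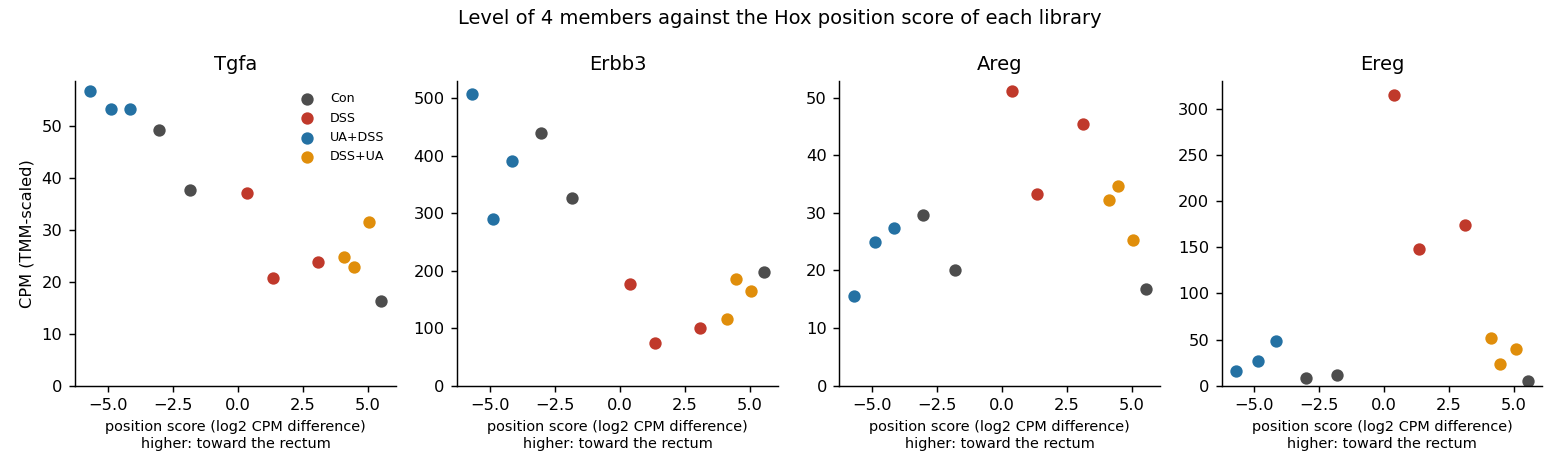
CPM (vertical axes, linear from 0) of Tgfa, Erbb3, Areg and Ereg in each of the 12 libraries against the Hox position score of the library (horizontal axes, log2 CPM difference, higher toward the rectum), coloured by group. Con 1, at a score of 5.53, held 16.4 CPM of Tgfa and 197 CPM of Erbb3, the lowest of the Con libraries, while Ereg was at 148 CPM or more in the 3 DSS libraries alone.

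Against Con, no member was called in UA+DSS by edgeR or limma-voom, and 1 was called by DESeq2. Of all tested genes 0.00566%, or 1 gene, was called by edgeR. At an unadjusted p under 0.05 there were 2 members, Ereg and Epgn, and 12.1% of all tested genes. Here too, Epgn had passed the low-count filter only through groups other than Con. Ereg was above Con in all 3 UA+DSS libraries, with a log2 fold change of 1.90 (SE 0.47, unadjusted p = 0.00200, edgeR adjusted p = 0.230, DESeq2 adjusted p = 0.00603). Epgn was at 1.35, 0.125 and 0.691 CPM in UA+DSS, which reached into the Con range. Areg at 22.7 ± 6.24 CPM, Egfr at 45.2 ± 3.93, Erbb2 at 204 ± 57.8 and Erbb3 at 396 ± 109 (SD, n = 3) lay within 0.30 log2 units of Con. Their SE was 0.17 to 0.37 log2 units, and differences of this size were not detectable with 3 libraries a group.

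With UA given from day 3 of DSS, Ereg was the only member called against the DSS group by edgeR. It was at 51.3, 23.9 and 40.2 CPM in DSS+UA, below every DSS library, a fall of 5.51-fold (log2 fold change -2.46, SE 0.47, edgeR adjusted p = 0.0210). Without DSS+UA 2 the adjusted p was 0.0772, without DSS+UA 3 it was 0.0981 and with the position score 0.0664. In this comparison 5.0% of all tested genes were lowered and 2.54% were raised. DESeq2 called 3 members, with Egf (adjusted p = 0.0204) and Egfr (0.0260) beside Ereg.

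Areg in DSS+UA was at 32.2, 34.6 and 25.3 CPM, between Con and DSS, and overlapped with DSS (log2 fold change -0.49, SE 0.27, edgeR adjusted p = 0.242). Egfr was at 39.7, 30.2 and 39.1 CPM, below every DSS library, and had a log2 fold change of -0.56 (SE 0.17, adjusted p = 0.0656). Ereg and Egfr were the 2 members without overlap, where 34.7% of all tested genes had none. Erbb2 was at 94.4, 143 and 130 CPM and Erbb3 at 115, 186 and 165 CPM. Both receptors overlapped with the DSS libraries, with log2 fold changes of 0.59 (adjusted p = 0.197) and 0.41 (adjusted p = 0.483). The epithelial markers summed to 16700 to 25700 CPM in DSS+UA, above all DSS libraries, and 5 of 10 rose. Per 1000 CPM of these markers Erbb3 was at 6.92 to 8.33 in DSS+UA, below the 9.44 to 13.9 of DSS. The higher marker sum by itself lowers this ratio for any gene. Erbb2 (5.57 to 6.56 against 7.04 to 8.86), Egfr (1.18 to 2.38 against 4.44 to 7.09) and Tgfa (0.888 to 1.59 against 2.25 to 2.94) were below DSS too. So were Areg (1.28 to 1.93 against 4.04 to 4.28) and Ereg (0.929 to 3.08 against 16.4 to 24.9). Of the other cell types, all 5 endothelial markers and 3 of 7 fibroblast markers fell in DSS+UA against DSS. The neutrophil and macrophage markers were all lower, but none of them was called. The part of these cells in the levels was not tested.

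Against Con, Ereg was still raised in DSS+UA (log2 fold change 2.23, SE 0.47, edgeR adjusted p = 0.0132, at most 0.0447 under the alternatives). Egf was lowered, at 1.05, 1.11 and 1.66 CPM against 5.69 to 8.88 in Con, without overlap. Its log2 fold change was -2.52 (SE 0.78, adjusted p = 0.0469), and leaving out any 1 of the 6 libraries compared brought the adjusted p to 0.0605 to 0.126. Of all tested genes 9.13% were raised and 8.95% lowered. Erbb3 was 2.07-fold lower without overlap (log2 fold change -1.05, adjusted p = 0.0695, or 0.0359 without Con 1). The epithelial marker sum overlapped with Con there, at 16700 to 25700 CPM against 13900 to 19300.

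Between the UA groups, Erbb3 was the only member called. It was 2.55-fold higher in UA+DSS than in DSS+UA (log2 fold change 1.35, SE 0.37, edgeR adjusted p = 0.0323), where 7.54% of all tested genes were raised and 9.23% lowered. With the position score in the fit the difference was 0.08 (adjusted p = 0.969). In that fit 0 of all tested genes were called in this comparison, against 2961 without the score. The 2 groups do not overlap in the score, so that this fit cannot tell position from treatment. Without UA+DSS 2, UA+DSS 3, DSS+UA 1, DSS+UA 2 or DSS+UA 3 the adjusted p was 0.124, 0.0709, 0.104, 0.0576 and 0.0928. Ereg did not differ detectably between them, with a log2 fold change of -0.32 (SE 0.45, adjusted p = 0.644).

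Per exon length, the order of the members was turned over in DSS. In Con, Erbb3 was highest at a mean of 53.4 CPM per kb, followed by Erbb2 at 33.8 and Areg at 18.2. Erbb3 and Erbb2 overlapped in range, and neither they nor Areg overlapped with the members below. Tgfa (5.32), Egfr (4.10), Hbegf (4.03), Btc (2.12) and Ereg (1.99) followed with ranges that overlapped from each to the next. In DSS, Ereg was highest at 51.4 CPM per kb and Areg next at 35.6, followed by Erbb3 at 19.5 and Erbb2 at 15.6, each overlapping the next. In UA+DSS the order began as in Con (Erbb3 65.9, Erbb2 39.1, Areg 18.7, Tgfa 8.39), and Ereg followed at 7.44. In DSS+UA, Erbb3 (25.8), Areg (25.3) and Erbb2 (23.5) overlapped each other and Ereg followed at 9.31. Egf and Epgn took the last 2 places in all 4 groups, at means of 0.0791 to 0.837 CPM per kb.

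**Figure D4:**
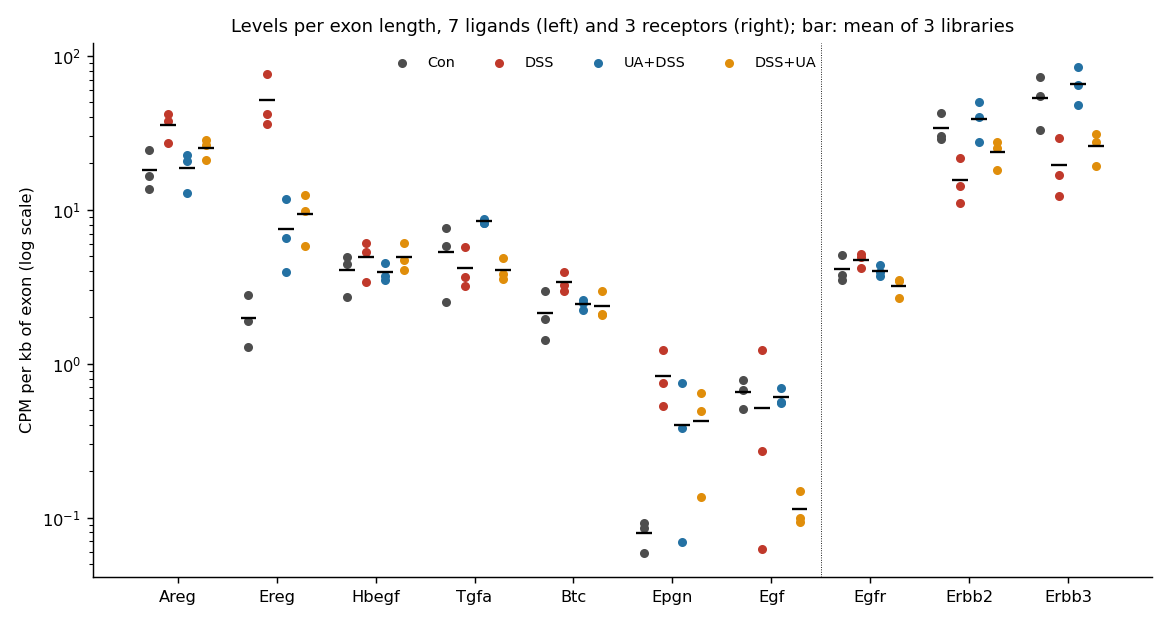
CPM per kb of exon (vertical axis, log scale) of the 10 members in each library, coloured by group, with the mean of 3 libraries as a bar; ligands are left of the dotted line and receptors right of it. Ereg moved from a mean of 1.99 in Con to 51.4 in DSS, while Erbb3 moved from 53.4 to 19.5.

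The neuregulins, which bind ERBB3 and ERBB4, were led by Nrg1. It was at 4.71, 4.38 and 7.49 CPM in Con and 39.4, 91.9 and 64.1 CPM in DSS, without overlap (log2 fold change 3.56, SE 0.42, edgeR adjusted p = 0.00132). In UA+DSS it was at 15.7, 7.87 and 18.9 CPM and in DSS+UA at 17.7, 10.2 and 12.5 CPM, below every DSS library in both (log2 fold changes -2.20, adjusted p = 0.00998, and -2.27, adjusted p = 0.0147). Nrg1 was thus highest in DSS, where its receptor gene Erbb3 had its lowest mean but overlapped with DSS+UA. Between UA+DSS and DSS+UA, where Erbb3 differed, Nrg1 did not differ detectably (log2 fold change 0.07, SE 0.38, edgeR adjusted p = 0.914). The Nrg1 calls against DSS were lost without UA+DSS 2 (adjusted p = 0.0507) and without DSS+UA 2 (0.0645) or DSS+UA 3 (0.0929), and with the position score (0.107 and 0.0556). The 7 fibroblast markers, which mark a known source of Nrg1, summed to 615 to 1650 CPM in UA+DSS and 965 to 2360 in DSS+UA, below every DSS library, and their part in the Nrg1 level was not tested. Nrg2 was at 0.919 to 1.36 CPM and Nrg4 at 1.54 to 1.63 CPM on average in Con and DSS, and neither passed the test in any comparison. Nrg3 was at means of 0.143 to 0.473 CPM and did not pass the low-count filter. Erbb4, the fourth receptor, was not detected in Con and DSS+UA (0 counts, where 3 counts over the group would be 0.0535 and 0.0564 CPM) and had 2 counts in DSS and 4 in UA+DSS.

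Of 11 genes for the release of the ligands (ADAM proteases and rhomboid proteins), 5 rose and 1 fell in DSS against Con (13.9% and 12.6% of all tested genes). The median log2 fold change of the 11 was 0.60, where that of all tested genes was -0.03. Adam8, a protease of myeloid cells among others, was at 1.76 to 2.89 CPM in Con and 35.2, 395 and 37.3 in DSS (log2 fold change 5.96, SE 0.95, edgeR adjusted p = 0.00329). Its highest value was in DSS 2, the library of high neutrophil markers, and without it the log2 fold change was 3.86 (adjusted p = 0.000193). Adam12 rose by 4.00 (SE 0.70, adjusted p = 0.00395). Adam17, which sheds Areg, Ereg, Epgn, Tgfa and Hbegf, and Adam19 and Rhbdf2 also rose, by 0.77, 1.79 and 1.23 (adjusted p = 0.00851, 0.0240 and 0.0454). The Rhbdf2 call was lost in 9 of 13 alternatives and that of Adam19 in 5, among them those without Con 1, Con 2 or DSS 2 for both genes, with an adjusted p of up to 0.155 and 0.0802. Rhbdl2, a rhomboid protease that can cut EGF, fell by 1.06 (SE 0.29, adjusted p = 0.0220, but 0.0725 without Con 1 and 0.0656 without DSS 2). Of the 11, 3 fell (Adam8, Adam12 and Adam17) and none rose in UA+DSS against DSS (10.5% and 8.21% of all tested genes). With UA given late, 2 fell (Adam8 and Adam12) and 1 rose (Rhbdl2) against DSS (5.0% and 2.54% of all tested genes).

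Among 10 genes listed for inhibition or turnover of the receptors, none rose and 2 fell in DSS against Con, where 13.9% of all tested genes rose and 12.6% fell (median log2 fold change 0.01). Lrig3 fell by 1.52 (SE 0.36, edgeR adjusted p = 0.0116) and Lrig2 by 0.52 (SE 0.14, adjusted p = 0.0221), both members of a family of membrane proteins of which LRIG1 promotes receptor degradation. Lrig1 itself was not called (log2 fold change -0.46, SE 0.24, edgeR adjusted p = 0.18), and an effect of Lrig2 or Lrig3 on the receptors was not tested. The Lrig2 call was lost without Con 2 (adjusted p = 0.0743), DSS 1 (0.0830) or DSS 2 (0.0523). Lrig3 and Cblc rose and none fell in UA+DSS against DSS (8.21% and 10.5% of all tested genes). In DSS+UA against DSS Cblc rose and Cbl fell (2.54% and 5.0% of all tested genes). Cbl and Cblc encode ubiquitin ligases that tag activated EGFR.

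Among 29 genes that relay the signal, 9 rose and 1 fell in DSS against Con, where 13.9% of all tested genes rose and 12.6% fell (median log2 fold change of the list 0.22). Stat3 rose by 1.50 (SE 0.16, edgeR adjusted p = 0.000868), from 98.3 to 118 CPM in Con to 277 to 353 in DSS. Akt2 rose by 0.95 (SE 0.18, adjusted p = 0.00563) and Araf fell by 0.43 (SE 0.12, adjusted p = 0.0205, but 0.0576 without Con 2, 0.0673 without DSS 1 and 0.0539 without DSS 3). STAT3 also relays IL-6, and AKT2 insulin, so that neither belongs to EGFR alone. In UA+DSS against DSS 3 of the 29 rose and 5 fell (8.21% and 10.5% of all tested genes), and in DSS+UA against DSS 1 rose and 3 fell (2.54% and 5.0%).

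Among 16 feedback and target genes induced by ERK, the kinase downstream of EGFR and of many other receptors, 6 rose and none fell in DSS against Con. Of all tested genes 13.9% rose and 12.6% fell there, and the median log2 fold change of the list was 0.56. Egr1, an immediate early transcription factor, went from 16.4 to 25.6 CPM in Con to 54.3 to 105 in DSS (log2 fold change 2.06, SE 0.33, edgeR adjusted p = 0.00311). Ier3, an early response gene, was at 14.1 to 16.6 CPM in Con and 55.2, 208 and 56.1 in DSS, highest in DSS 2 (log2 fold change 2.80, SE 0.47, adjusted p = 0.00360, and 1.87 without DSS 2). Dusp4 and Dusp5, which dephosphorylate ERK, and Spry4 and Fosl1 made up the other 4. In UA+DSS against DSS 7 of the 16 fell (Dusp4, Dusp5, Spry4, Fosl1, Egr1, Ier3 and Phlda1) and none rose. Of all tested genes 10.5% fell and 8.21% rose there, and the median was -1.02 for the list and -0.02 for all tested genes. In DSS+UA against DSS 5 fell (Egr1, Ier3, Dusp4, Spry1 and Spred1) and none rose, with a median of -0.69, where 5.0% of all tested genes fell and 2.54% rose. The share of these genes that follows EGFR signalling and not other inputs was not tested.

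**Figure D5:**
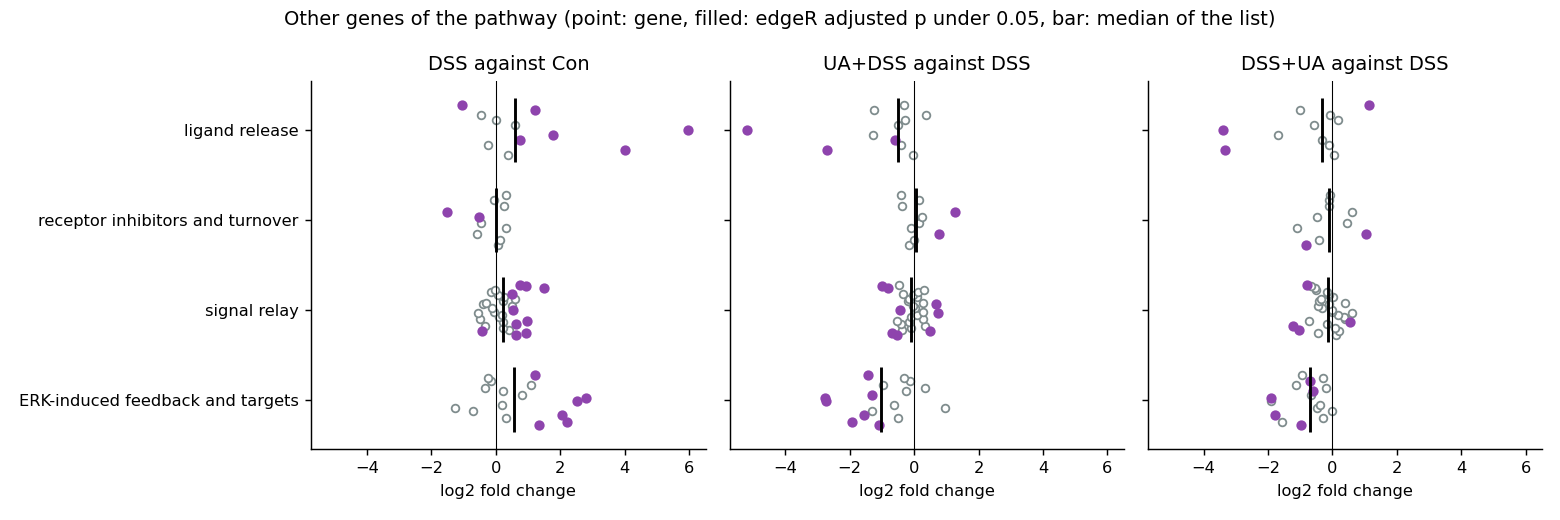
Log2 fold change (horizontal axes) of each tested gene in 4 lists of the pathway (rows) for DSS against Con, UA+DSS against DSS and DSS+UA against DSS; filled points had an edgeR adjusted p under 0.05 and the bar is the median of the list. The ERK target list had a median of 0.56 in DSS against Con, of -1.02 in UA+DSS against DSS and of -0.69 in DSS+UA against DSS, and the last 2 share their DSS libraries with the first.

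In the UA comparisons the number of calls in these 4 lists depended on single libraries. The genes lowered in UA+DSS against DSS were 15 with all libraries and 0 to 17 with 1 left out, and in DSS+UA against DSS they were 11 and 0 to 10. Without UA+DSS 2, or with the position score, no gene of the 4 lists was called in UA+DSS against DSS, and without DSS+UA 2, without DSS+UA 3 or with the position score none was called in DSS+UA against DSS. The calls over all tested genes fell in the same settings. In UA+DSS against DSS they went from 3300 to 183 without UA+DSS 2 and 3 with the position score. In DSS+UA against DSS they went from 1331 to 142 without DSS+UA 2, 25 without DSS+UA 3 and 199 with the position score. In DSS against Con the ERK targets raised were 5 or 6 without any 1 library and 3 in a fit of the 2 groups, while the relay genes raised were 7 to 9 and 2 and the release genes 3 to 5 and 2.

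In UA+DSS against Con none of the 69 tested genes of these lists, neuregulins included, was called by edgeR in either direction, with 6 at an unadjusted p under 0.05, where 12.1% of all tested genes were. In DSS+UA against Con, where 9.13% of all tested genes were raised and 8.95% lowered, no release gene was called. Nrg1 was raised (log2 fold change 1.28, adjusted p = 0.0433, but 0.0520 to 0.120 in 11 of 13 alternatives). Of the inhibitor and turnover list 2 genes (Lrig2 and Cbl) were lowered. Of the relay genes 5 were raised and 2 lowered, and 1 ERK target (Spry1) was lowered. Between UA+DSS and DSS+UA, 7.54% of all tested genes were called higher and 9.23% lower in UA+DSS. There 1 release gene (Rhbdl2) was lower in UA+DSS, and 2 genes of the inhibitor and turnover list (Lrig2 and Cbl) were higher. Of the relay genes 3 were higher and 3 lower, and no ERK target was called.

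The genes whose log2 CPM was most like that of each member over the 12 libraries were looked up among 13719 genes by Pearson's r, as a description, since all libraries share the 4 groups. Ereg was most like Sh3pxd2b (r = 0.985), a scaffold protein of invasive cell protrusions, and Col18a1 (0.981), a basement membrane collagen. Areg was most like Spry4 (0.886), a feedback inhibitor of receptor signalling, and the chemokine Ccl7 (0.870). Epgn was most like Cdc7 (0.921) and Mmp3 (0.894). Erbb2 was most like Decr2 (0.989), an enzyme of peroxisomal fatty acid oxidation, and Akr1e1 (0.986). Erbb3 was most like the ion channel Trpm4 (0.991) and Tmem94 (0.990). Egfr was most like Tmx4 (0.954) and Cacna2d1 (0.947), a calcium channel subunit. For the other ligands these genes were Edem3 and Slc25a24 (both 0.973) for Tgfa, Zfp568 (0.935) and Nek7 (0.929) for Btc, Azgp1 (0.930) and Mamdc2 (0.897) for Egf, and Abhd5 (0.891) and Igkv14-100 (0.881) for Hbegf.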

How the data were processed

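With HISAT2 on GRCm38 the authors derived read counts per gene, and the deposited tables hold these whole-number counts, not normalized, for 12 samples. The labels name Trizol for the RNA and the methods a column kit. The sources used here do not give the aligner version, annotation or use of strand. Symbols and exon lengths came from GENCODE M21 (GRCm38), and 37 genes without a symbol held 0.0036% of the counts.

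In R 4.3.3, filterByExpr of edgeR 4.0.16 left 17658 genes (99.8% of the counts), which were scaled by TMM (factors 0.871 to 1.09) and fitted with 1 robust quasi-likelihood model over all 12 samples (biological coefficient of variation 0.352). The samples of a group are separate mice. Pairs of groups were compared and p-values adjusted over all tested genes by Benjamini-Hochberg. Alternatives were library size scaling, no filter, DESeq2 1.42.0, limma-voom (limma 3.58.1), a fit of the 2 groups, the replicate number as a block, the Hox position score as a covariate and leaving out each library. Correlations used log2 CPM with a prior count of 2 and genes with a mean of at least 1. Promoters were read from RefSeq.

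The 10 members are named throughout. Of each pathway list, the raised and lowered genes with the smallest p in DSS against Con were named, at most 2 of each. The other called genes of the release, inhibitor and turnover, and ERK target lists were named after their values were seen. The members and lists were chosen with earlier results of these data known. Per the files, totals of 15566216 to 19498383 counts limit precision mainly for Epgn and Erbb4, and intervals and limits of counts cover counting error only.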

Additional observations from a re-analysis of the deposited data

Results flagged for a closer look

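For Erbb3 the effect of UA given early (UA+DSS against DSS) and that of UA given late (DSS+UA against DSS) differed by 1.35 on the log2 scale by edgeR's test of the difference, which is the comparison of UA+DSS with DSS+UA (adjusted p = 0.0323). Erbb3 was higher in all 3 UA+DSS libraries than in all 3 DSS+UA libraries. The position score of the libraries moved with it, and with that score in the fit the difference was 0.08 (adjusted p = 0.969). The 2 groups do not overlap in the score, and 0 of all tested genes were called in that fit. It therefore cannot tell position from treatment for Erbb3.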

How the results depend on the processing

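Of 778 recomputed log2 fold changes of single members 671 kept their direction and side of the threshold. Members called were 5 in DSS against Con, 4 in UA+DSS and 1 in DSS+UA against DSS, 0 in UA+DSS against Con, 2 in DSS+UA against Con and 1 in UA+DSS against DSS+UA. Leaving out 1 library gave 3 to 5, 0 to 4, 0 to 2, 0, 1 to 2 and 0 to 1, respectively. With the position score they were 6, 0, 0, 0, 1 and 0. Fits of the 2 groups gave 2 in DSS against Con and 3 in UA+DSS against DSS+UA, and DESeq2 gave 3 in DSS+UA against DSS, 1 in UA+DSS against Con, 4 in DSS+UA against Con and 3 in UA+DSS against DSS+UA. In DSS+UA against Con no filter, limma-voom and the replicate block each gave 1. For all genes the position score left 3 calls of 3300 in UA+DSS against DSS and 0 of 2961 in UA+DSS against DSS+UA, and the cause was not tested. Depth limited Epgn and Erbb4.

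The replicate numbers did not pair the libraries: same-numbered libraries of different groups had deviations from the group means correlated at -0.216 to 0.187. With the number as a block 5, 3, 1, 0, 1 and 1 members were called in the same order. Over all genes the block moved the calls in DSS+UA against DSS from 1331 to 552.

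The signs that changed all belonged to differences that were not called. With the position score, Tgfa was at 0.02 in DSS against Con, -0.10 (UA+DSS) and 0.48 (DSS+UA) against DSS, -0.08 in UA+DSS against Con, 0.50 in DSS+UA against Con and -0.58 in UA+DSS against DSS+UA. In UA+DSS against Con it put Areg at -0.26, Btc at -0.24, Egf at 0.07, Erbb2 at -0.08 and Erbb3 at -0.32, and in UA+DSS against DSS+UA Btc at -0.83 and Egfr at -0.04. Hbegf in DSS+UA against DSS was at -0.15 with library size scaling, -0.04 in the fit of the 2 groups and -0.03 with the replicate block. With 1 library left out, the ranges that crossed 0 were -0.68 to 0.01 (Tgfa) and -1.97 to 0.19 (Egf) in DSS against Con, -0.30 to 1.85 (Egf) in UA+DSS against DSS, and -0.21 to 0.20 (Hbegf) and -0.20 to 0.26 (Tgfa) in DSS+UA against DSS. In UA+DSS against Con they were -0.13 to 0.31 (Areg), -0.26 to 0.14 (Hbegf), -0.02 to 0.51 (Btc), -0.27 to 0.04 (Egf) and -0.14 to 0.13 (Egfr). They were -0.06 to 0.49 (Btc) in DSS+UA against Con, and -0.07 to 0.21 (Btc) and -0.88 to 0.39 (Epgn) in UA+DSS against DSS+UA.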

Other observations

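The ratio of Ereg to Areg within a library, each in CPM per kb, was 0.0769 to 0.170 in Con, 1.13 to 1.81 in DSS, 0.306 to 0.523 in UA+DSS and 0.203 to 0.469 in DSS+UA. In each DSS library epiregulin transcripts thus outnumbered those of amphiregulin per length, and in no other library did they. The ratio of Erbb3 to Egfr in the same unit was 9.38 to 19.4 in Con, 2.51 to 5.68 in DSS, 13.0 to 21.6 in UA+DSS and 5.47 to 11.5 in DSS+UA, so that DSS lay below Con and UA+DSS without overlap. The ratio of Erbb3 to Erbb2 was 1.13 to 1.80 in Con, 1.12 to 1.36 in DSS, 1.63 to 1.75 in UA+DSS and 1.06 to 1.12 in DSS+UA, so that UA+DSS lay above DSS and DSS+UA and within the range of Con. In Con 1, with the Hox score of the rectal end, it was 1.13, and in Con 2 and Con 3 it was 1.73 and 1.80. Treatment and sampled position cannot be told apart in this ratio. These ratios are within single libraries, do not depend on the scaling between libraries, and were chosen after the values were seen.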
